A study of Mus musculus with 16 samples.

Results

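Bile acid synthesis, transport and sensing were followed through the messenger RNA of 10 genes in the liver and the kidney of mice kept under a regular or a repeatedly advanced light cycle. The 10 genes were taken by symbol from tables of 32989 genes, and each symbol stood for 1 gene entry in the tables. The animals were male C57BL/6J mice kept for 85 weeks, until the age of 97 weeks. The LD-conditioned mice had light from 8:00 to 20:00, and the ADV-conditioned mice had the cycle shifted 8 h earlier every 4 days. From 4 mice of each condition, named L63, L65, L86 and L104 (LD) and A75, A91, A94 and A115 (ADV) by the numbers in the labels, both organs were taken, which gives 16 poly(A)-selected stranded libraries. All organs were collected within a few hours of the same time after the last onset of light, so that each mouse was seen at 1 time point and its own circadian phase was not measured. The sequencing was shared between a pair of providers and instruments, and since it is not given which library came from which, provider and condition cannot be told apart.

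Bile acids are made from cholesterol in hepatocytes. In the classic pathway Cyp7a1 adds the first hydroxyl group to cholesterol and sets the rate, and Cyp8b1 directs the product towards cholic acid, while in the alternative pathway Cyp27a1 oxidises the side chain and Cyp7b1 hydroxylates the resulting oxysterols. Slc27a5 activates bile acids with coenzyme A and Baat joins them to taurine or glycine, Abcb11 (the bile salt export pump) secretes them into the bile canaliculus, and Slc10a1 (NTCP) takes them up again from portal blood. Bile acids bind the nuclear receptor Nr1h4 (FXR), which induces Nr0b2 (SHP), a repressor of Cyp7a1 and Cyp8b1, and which also induces Abcb11. Several of these genes, Cyp7a1 among them, cycle over the day in rodent liver.

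The LD livers had between 22501279.5 and 24285055 fragments on genes and the ADV livers between 21092501 and 21721621, so that each ADV liver had fewer than each LD liver. The kidneys had between 15688495 and 18043306, and there the conditions overlapped. The hepatocyte markers summed to between 59267 and 72986 FPKM (fragments relative to exon length and to the total of the library) in the LD livers and between 59493 and 71037 FPKM in the ADV livers, with 0 of 8 passing an unadjusted p of 0.05 by limma in either direction. The liver of A94 stood apart, with a mean correlation with the other livers across genes of 0.941 against at least 0.977 for the others. In it the 6 Kupffer cell and macrophage markers summed to 444 FPKM, against 88.5 to 119 FPKM in the LD livers and 123 to 144 FPKM in the other ADV livers, and the 7 lymphocyte markers summed to 54.5 FPKM, against 2.61 to 5.17 FPKM in the other livers. The kidney of A115 stood further apart, with a mean correlation of 0.858 and 33.8% of its fragments on mitochondrial genes, against 9.43% to 18.02% in the other kidneys. In RNA of whole tissue, fewer cells of a type and less RNA per cell cannot be told apart.

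The stretches around the start sites of Abcb11, Nr0b2 and Cyp8b1 are shown because these genes stand for the induced, the repressing and the repressed arm of the FXR circuit. The sequences are RefSeq's on GRCm38.p6, run 5′ to 3′ from 250 bases before to 50 bases after the start site, and lie at chr2:69342567-69342866 (minus strand), chr4:133553126-133553425 (plus strand) and chr9:121916256-121916555 (minus strand).
Abcb11: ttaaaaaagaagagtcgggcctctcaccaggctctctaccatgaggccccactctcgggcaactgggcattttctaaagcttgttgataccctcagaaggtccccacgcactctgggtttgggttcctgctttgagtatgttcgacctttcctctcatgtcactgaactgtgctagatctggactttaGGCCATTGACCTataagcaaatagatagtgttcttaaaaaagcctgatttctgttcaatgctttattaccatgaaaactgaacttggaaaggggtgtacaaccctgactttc
Nr0b2: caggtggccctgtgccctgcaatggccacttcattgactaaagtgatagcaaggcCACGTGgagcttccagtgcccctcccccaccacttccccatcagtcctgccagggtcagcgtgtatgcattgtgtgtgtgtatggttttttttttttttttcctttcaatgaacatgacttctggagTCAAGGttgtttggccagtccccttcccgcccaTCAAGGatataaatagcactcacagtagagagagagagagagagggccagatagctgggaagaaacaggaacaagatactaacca
Cyp8b1: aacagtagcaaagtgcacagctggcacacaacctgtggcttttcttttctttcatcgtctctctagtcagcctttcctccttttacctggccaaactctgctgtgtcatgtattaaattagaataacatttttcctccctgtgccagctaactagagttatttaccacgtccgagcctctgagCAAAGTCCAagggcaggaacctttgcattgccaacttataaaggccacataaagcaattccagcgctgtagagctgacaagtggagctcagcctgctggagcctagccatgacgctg
Capitals mark matches, sought on both strands, to letters chosen after the sequences had been seen. In Abcb11 they mark a pair of inverted half-sites, GGNCA and TGNCC with 1 base between them, 62 bases before the start site, overlapping a match to the half-site AGGTCA on the other strand. The first of these patterns is held by 0.676% and the second by 16.3% of the 32851 promoter windows of this length in the table. In Nr0b2 they mark the core TCAAGG bound by LRH-1, 68 and 35 bases before the start site (14.4% of all windows hold one), and an E-box, CACGTG, 195 bases before it (7.15%). The Cyp8b1 window holds CAAAGTCCA, a core bound by HNF4A, 67 bases before its start site (0.475%). A D-box, TTANGTAA, held by 2.32% of all windows, was not matched in any of the 7 windows, which cover 6 of the 10 genes. These matches describe the letters, and binding was not measured.

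In the liver, no gene of the 10 passed an adjusted p of 0.05 by limma over the 12835 genes tested, where 0.00779% of all genes passed. That is 1 gene, Col27a1, a collagen gene looked up after its value was seen. At an unadjusted p under 0.05 there was 1 of the 10, Cyp8b1, lower in the ADV condition, beside 11.8% of all genes (8.65% higher and 3.13% lower). By limma-voom on the recovered fragments it was the same gene. For 0 of the 10 did the groups not overlap, beside 8.84% of all genes (6.94% higher and 1.89% lower). The log2 fold change was below 0 for 7 genes and above 0 for 3, with a median of −0.18 against 0.096 over all genes, of which 65.7% lay above 0. Without A94, 5 lay below 0 and 5 above, and 3 had an unadjusted p under 0.05 by limma, Abcb11 and Baat higher and Cyp8b1 lower, beside 14.5% of all genes (8.8% higher and 5.66% lower). All log2 fold changes are ADV against LD on the log2(FPKM + 0.1) scale, SE is their standard error, and an exact permutation test (two-sided) was added for single genes, whose smallest possible p is 0.0286.

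**Figure D1:**
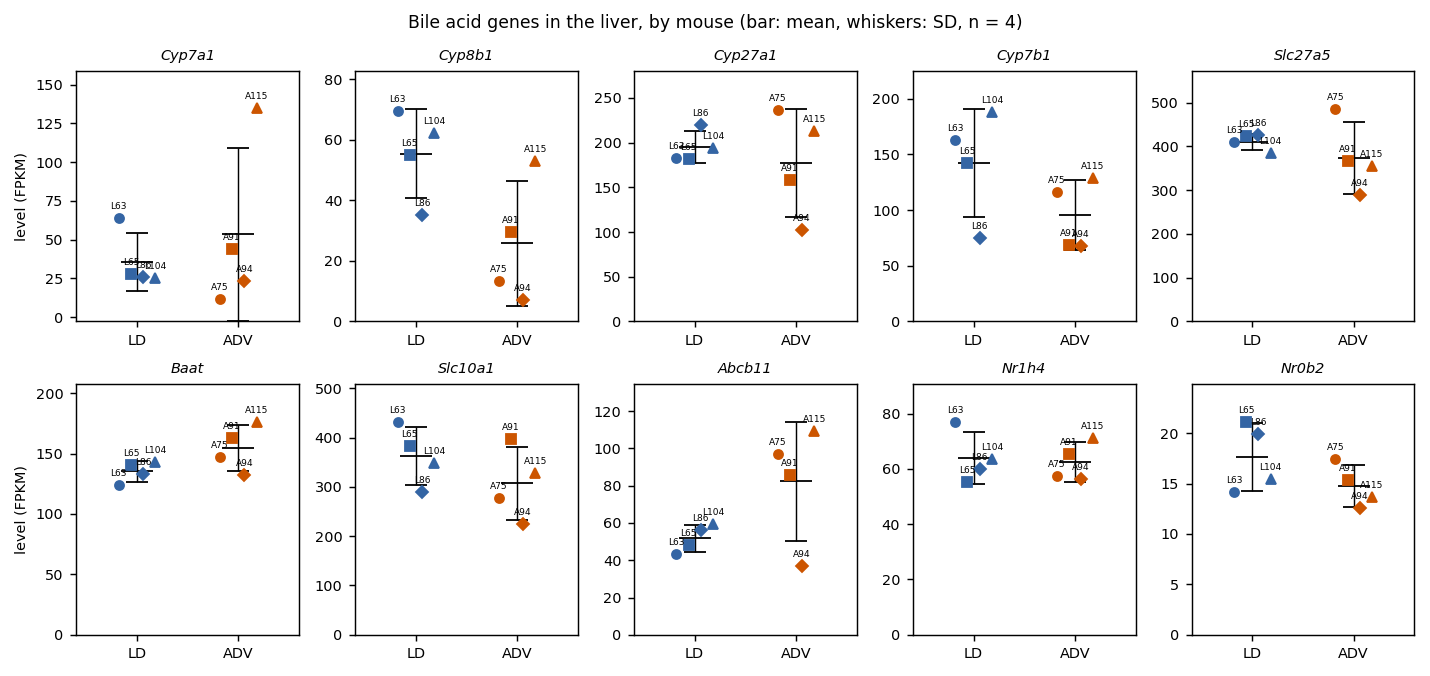
Level of the 10 bile acid genes in the liver of each mouse (vertical axes, FPKM, each with its own range), LD against ADV, with the mean as a bar and the SD as whiskers (n = 4 mice). Cyp8b1 lies between 35.2 and 69.4 FPKM in the LD livers and between 7.10 and 53.1 FPKM in the ADV livers, and A94 is the lowest liver in 7 of the 10 panels.

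Cyp7a1 lies at chr4:6265612-6275631 on the minus strand (mm10, as all positions of genes here), with 4166 bases of exon. Its level was 63.6, 27.6, 26.0 and 25.1 FPKM in L63, L65, L86 and L104. In the ADV livers it was 11.6, 44.0, 23.1 and 135 FPKM in A75, A91, A94 and A115. Both the lowest and the highest of the 8 livers were ADV-conditioned, and the groups overlapped. ADV against LD, the log2 fold change was 0.12 (SE 0.66, limma adjusted p = 0.947, exact permutation p = 1.0), with a 95% interval from −1.36 to 1.59. The SD on the log2 scale was 0.64 among the LD livers and 1.5 among the ADV livers. The sign rested on single mice. The log2 fold change was −0.52 (SE 0.47, limma adjusted p = 0.658) without A115 and −0.0077 without L104, while it was 0.66 without A75 and 0.33 without A94.

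The sterol 12-alpha-hydroxylase Cyp8b1 (chr9:121914356-121916305, minus strand) has 1949 bases of exon. It stood at 69.4, 54.8, 35.2 and 62.4 FPKM in L63, L65, L86 and L104. The ADV values were 13.4, 29.4, 7.10 and 53.1 FPKM in A75, A91, A94 and A115. In 3 of the 4 ADV livers the level was below that of every LD liver, and A115 lay within the LD range. The mean was 25.8 ± 20.5 FPKM (SD, n = 4) in the ADV livers against 55.4 ± 14.7 FPKM (SD, n = 4) in the LD livers. The log2 fold change of −1.45 (SE 0.54, 95% interval from −2.66 to −0.24) had an unadjusted p of 0.0241 and an adjusted p of 0.382 by limma, and the exact permutation test gave p = 0.0571. Scaling by the median ratio gave −1.55, and quantile normalization gave −1.49. Without A115 the groups did not overlap and the log2 fold change was −1.92 (limma adjusted p = 0.453), and without A94 it was −0.96 (limma adjusted p = 0.319). The 6 pericentral hepatocyte markers summed to between 5707 and 6619 FPKM in the LD livers and between 4483 and 5742 FPKM in the ADV livers. Most of the sum was Cyp2e1, with a mean of 5247 FPKM in LD and 4139 FPKM in ADV. The means of Cyp1a2 and Slc1a2 were also lower in ADV, and those of Glul, Oat and Axin2 were higher. None of these 6 markers passed an unadjusted p of 0.05 by limma, and their part in the level of Cyp8b1 was not tested.

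In the alternative pathway, the mitochondrial sterol 27-hydroxylase Cyp27a1 (chr1:74713535-74737897, plus strand, 1927 exon bases) measured 183, 181, 220 and 194 FPKM in L63, L65, L86 and L104. It measured 237, 158, 102 and 213 FPKM in A75, A91, A94 and A115. The ADV livers lay on both sides of the LD range, and the log2 fold change was −0.20 (SE 0.24, limma adjusted p = 0.712) with all mice and 0.042 without A94. The oxysterol 7-alpha-hydroxylase Cyp7b1 (chr3:18071950-18243338, minus strand, 2160 exon bases) measured 163, 142, 74.8 and 188 FPKM in L63, L65, L86 and L104. In A75, A91, A94 and A115 it measured 116, 69.1, 68.1 and 129 FPKM. A91 and A94 were the lowest of the 8 livers, but L86 was nearly as low, and the groups overlapped. For Cyp7b1 the log2 fold change was −0.55 (SE 0.31, 95% interval from −1.26 to 0.15, limma adjusted p = 0.483). Without L86 it was −0.83 (SE 0.25, unadjusted p = 0.0100, limma adjusted p = 0.503).

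Of the conjugating enzymes, Slc27a5 (chr7:12988346-12998192, minus strand, 2320 exon bases) had the highest mean level of the 10 genes in the liver. Its levels were 409, 423, 425 and 386 FPKM in L63, L65, L86 and L104, and 485, 367, 289 and 355 FPKM in A75, A91, A94 and A115. The LD livers lay close together, with an SD of 18.4 FPKM, and the ADV livers lay on both sides of them, with an SD of 81.9 FPKM. A log2 fold change of −0.16 resulted (SE 0.15, limma adjusted p = 0.640), which became −0.044 without A94 and −0.29 (unadjusted p = 0.0404, limma adjusted p = 0.456) without A75. Baat (chr4:49489418-49506558, minus strand, 1942 exon bases) was at 124, 141, 133 and 143 FPKM in the LD livers. It was at 147, 163, 132 and 176 FPKM in A75, A91, A94 and A115. Every ADV liver but A94 exceeded every LD liver. Baat had a log2 fold change of 0.19 (SE 0.11, limma adjusted p = 0.494), and 0.26 (SE 0.098, limma adjusted p = 0.278) without A94. Scaled by the median ratio it was 0.084, a step that moved the median of all genes from 0.096 to −0.0020.

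Among the transporters, Slc10a1 (chr12:80953185-80968079, minus strand, 1669 exon bases) reached 431, 383, 290 and 348 FPKM in L63, L65, L86 and L104. It reached 278, 397, 225 and 328 FPKM in A75, A91, A94 and A115. The groups overlapped, with a log2 fold change of −0.26 (SE 0.19, limma adjusted p = 0.557). It was −0.12 without A94 and −0.39 (unadjusted p = 0.0502 by limma) without A91.

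Abcb11 (chr2:69238282-69342616, minus strand, 4867 exon bases), whose start region is printed above, was at 43.1, 48.3, 56.1 and 59.4 FPKM in L63, L65, L86 and L104. In A75, A91, A94 and A115 it was at 97.1, 85.7, 36.9 and 110 FPKM. In 3 ADV livers the level exceeded that of every LD liver, and in A94 it was below every LD liver. With all mice the log2 fold change was 0.57 (SE 0.30, 95% interval from −0.12 to 1.25, limma adjusted p = 0.469, exact permutation p = 0.171). Without A94 the ADV mean was 97.5 ± 11.9 FPKM (SD, n = 3) and the log2 fold change was 0.92 (SE 0.13, 95% interval from 0.62 to 1.21), with an adjusted p of 0.110 by limma. With A94 left out and scaling by the median ratio, it was 0.89 and the adjusted p was 0.0765 by limma. Without A115 the log2 fold change was 0.39 (unadjusted p = 0.237 by limma), and 0.29 (unadjusted p = 0.462) with scaling by the median ratio as well. The macrophage and lymphocyte markers given above were highest in A94, the liver with the lowest Abcb11. In A75, A91 and A115 both sums also lay above every LD liver, and there Abcb11 was higher than in every LD liver. In A94 the 7 stellate cell and fibroblast markers summed to 106 FPKM, against 13.9 to 15.9 FPKM in the LD livers and 16.03 to 29.04 FPKM in the other ADV livers. The 6 cholangiocyte markers summed there to 247 FPKM, against 20.0 to 27.8 FPKM in the LD livers and 26.7 to 53.6 FPKM in the other ADV livers. Of the 247 FPKM, Spp1 alone gave 242 FPKM. In A94 Krt19 was within its LD range, at 0.815 FPKM. Krt7, Sox9, Epcam and Cftr were above their LD ranges there, at no more than 1.55 FPKM. The part of these markers in the level of Abcb11 was not tested.

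Of the sensors, the receptor gene Nr1h4 (chr10:89454234-89506658, minus strand, 1976 exon bases) was the steadiest on the log2 scale among the ADV livers. Its levels were 76.9, 55.1, 60.02 and 63.7 FPKM in L63, L65, L86 and L104, and 57.3, 65.4, 56.2 and 71.3 FPKM in A75, A91, A94 and A115. All ADV values fell within the LD range, and the log2 fold change was −0.028 (SE 0.13, 95% interval from −0.31 to 0.26, limma adjusted p = 0.935), or 0.021 without A94. Nr0b2 (chr4:133553376-133556686, plus strand, 1280 exon bases) had the lowest mean of the 10, at 14.2, 21.1, 19.9 and 15.4 FPKM in the LD livers. It was at 17.4, 15.4, 12.6 and 13.7 FPKM in A75, A91, A94 and A115. A94 and A115 were below every LD liver, while A75 and A91 were within the LD range. Nr0b2 had a log2 fold change of −0.25 (SE 0.16, 95% interval from −0.60 to 0.10, limma adjusted p = 0.513).

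Ordered by their mean over the 8 livers, the genes ran Slc27a5, Slc10a1, Cyp27a1, Baat, Cyp7b1, Abcb11, Nr1h4, Cyp7a1, Cyp8b1 and Nr0b2, from 392 to 16.2 FPKM, a scale on which exon length has been divided out. The ranges of each neighbouring pair overlapped, and in 1 pair, Slc10a1 above Cyp27a1, the order held in all 8 livers. The SD on the log2 scale was larger among the ADV than among the LD livers for 7 of the 10 genes, beside 76.5% of all genes. A94 was the lowest of the 8 livers for Cyp8b1, Cyp27a1, Cyp7b1, Slc10a1, Abcb11, Nr0b2 and Slc27a5. Over all genes A94 was lowest in 8.32% and highest in 49.7%. The least covered of these values, Cyp8b1 in A94, still rested on 314.5 fragments.

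**Figure D2:**
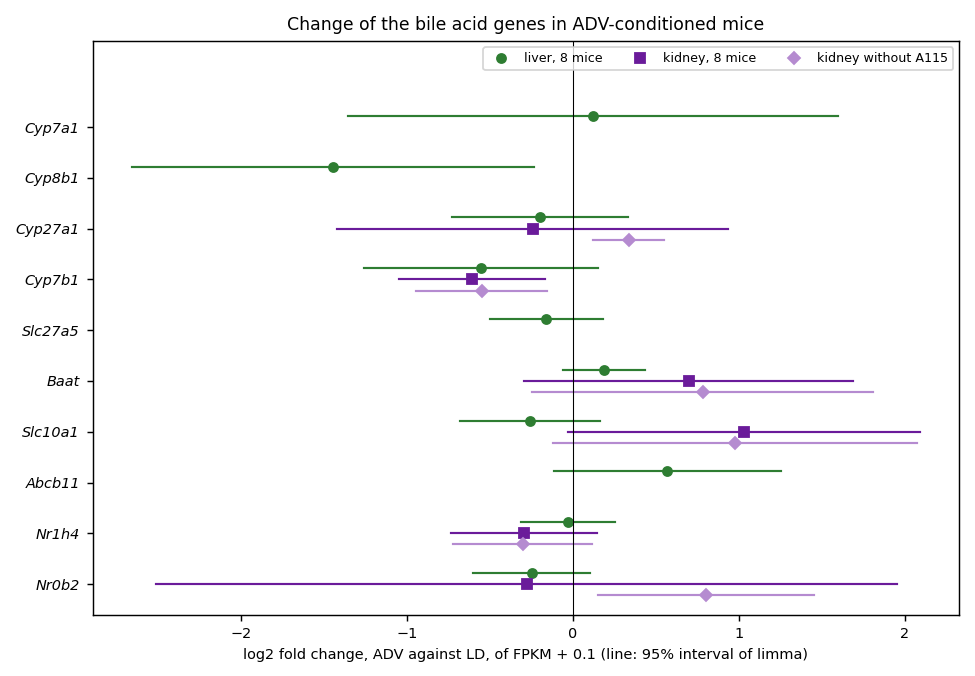
Log2 fold change of each gene, ADV against LD (horizontal axis, log2 of FPKM + 0.1), with the 95% interval of limma as a line, for the 8 livers, the 8 kidneys and the kidneys without A115. Of the liver intervals, that of Cyp8b1 lies wholly below 0, and leaving out A115 moves Cyp27a1 in the kidney from −0.24 to 0.33.

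In the kidney, 6 of the 10 genes passed the filter on low values, and 4 did not. By limma 0 of the 6 passed an adjusted p of 0.05, as did 0% of the 14452 genes tested, and 1, Cyp7b1, had an unadjusted p under 0.05, beside 3.1% of all genes (1.75% higher and 1.35% lower). By limma-voom the count at an adjusted p was 0 as well, and Cyp7b1 was again the 1 gene at an unadjusted p under 0.05. Its groups did not overlap, beside 2.8% of all genes (1.83% lower in ADV). The median log2 fold change of the 6 was −0.26, against −0.024 over all genes, with 2 of the 6 above 0, beside 46.4% of all genes. Without A115, 4 of the 6 lay above 0, their median was 0.56 against 0.20 over all genes, and 3 had an unadjusted p under 0.05 by limma, beside 37.1% of all genes (29.5% higher and 7.58% lower). The SD on the log2 scale was larger among the ADV kidneys for 4 of the 6, beside 90.1% of all genes.

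Cyp7b1 was at 69.3, 50.4, 56.2 and 74.9 FPKM in the kidneys of L63, L65, L86 and L104. In A75, A91, A94 and A115 it was at 34.3, 44.0, 50.1 and 35.9 FPKM. Each ADV kidney was below each LD kidney, though A94 and L65 differed little. The log2 fold change was −0.61 (SE 0.19, 95% interval from −1.05 to −0.17, limma adjusted p = 1.0, exact permutation p = 0.0286). The 7 proximal tubule markers summed to between 27581 and 40567 FPKM in the LD kidneys and between 18530 and 46378 FPKM in the ADV kidneys, most of it from Kap, an androgen-regulated kidney gene. The other 6 markers summed to between 1418 and 1630 FPKM in the LD kidneys, to between 1935 and 2308 FPKM in A75, A91 and A94, and to 456 FPKM in A115. Slc34a1, a phosphate transporter, gave most of this sum outside A115, and was at 154 FPKM in A115 against 801 to 1553 FPKM in the other 7 kidneys. Slc5a2, Aqp1, Lrp2 and Cubn were also lowest in A115, Cubn by little (38.3 FPKM against 38.9 to 55.4 FPKM). Slc5a12 and Kap were highest in A115, Slc5a12 at 111 FPKM against 50.3 to 81.6 FPKM. The part of these markers in the level of Cyp7b1 was not tested. Without A115 the log2 fold change was −0.55 with an adjusted p of 0.0578 by limma, and with A115 left out and scaling by the median ratio it was −0.75 with an adjusted p of 0.0361 by limma, in fits where 18.8% (16.1% higher, 2.68% lower) and 16% (8.06% higher, 7.9% lower) of all genes passed.

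Cyp27a1 was at 17.0, 16.6, 17.4 and 17.5 FPKM in the LD kidneys. In the ADV kidneys it was at 19.2, 23.2, 22.6 and 4.27 FPKM in A75, A91, A94 and A115. The first 3 of these exceeded every LD kidney and A115 was below all of them, so that 1 library decided the direction. The log2 fold change was −0.24 (SE 0.51, limma adjusted p = 1.0) with A115 and 0.33 (SE 0.093, limma adjusted p = 0.0400) without it. Without A115 and after scaling by the median ratio it was 0.14 with an adjusted p of 0.404 by limma. In the kidney of A115, 55.4% of all genes were at the lowest of the 8 levels.

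Nr1h4 in the kidney was at 95.7, 63.6, 65.1 and 91.8 FPKM in L63, L65, L86 and L104, and at 52.2, 72.3, 66.2 and 64.1 FPKM in A75, A91, A94 and A115. The groups overlapped, with a log2 fold change of −0.30 (SE 0.19, 95% interval from −0.74 to 0.15, limma adjusted p = 1.0). Its partner Nr0b2 was low, at 1.05, 0.776, 1.71 and 0.861 FPKM in the LD kidneys and at 2.17, 1.41, 2.24 and 0 FPKM in A75, A91, A94 and A115. The 0 in A115 allows up to 0.122 FPKM, the level that 3 fragments give, and such limits cover counting error only. With A115 the log2 fold change of Nr0b2 was −0.28 (SE 0.97), and without it 0.80 (SE 0.28, limma adjusted p = 0.0809).

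Slc10a1 and Baat were detected at a low level in the kidney. Slc10a1 was at 0.525, 0.875, 0.698 and 0.726 FPKM in the LD kidneys and at 1.40, 0.610, 3.53 and 1.72 FPKM in A75, A91, A94 and A115, from 17 to 116 fragments. It exceeded every LD kidney in 3 of the 4 ADV kidneys, with a log2 fold change of 1.03 (SE 0.46, 95% interval from −0.027 to 2.09, limma adjusted p = 1.0). It was 0.65 (SE 0.37, limma adjusted p = 1.0) without A94, the highest kidney, and 1.43 (SE 0.36, limma adjusted p = 0.606) without A91. Baat was between 0.284 and 0.570 FPKM in the LD kidneys, between 0.451 and 0.592 FPKM in A75, A91 and A115, and at 1.87 FPKM in A94. Its log2 fold change was 0.70 (SE 0.43, limma adjusted p = 1.0), and 0.28 without A94. The hepatocyte markers in the kidney summed to between 18.8 and 38.2 FPKM in the LD mice and between 28.2 and 80.9 FPKM in the ADV mice, with A75 the highest and A94 at 28.2 FPKM. Ttr and Fgb gave most of each sum, and Cps1 was at 0 in all 8 kidneys. Alb was at 3.86 to 5.71 FPKM in LD and 2.83 to 4.56 FPKM in ADV, while Apoa1 was at 0.119 to 0.178 FPKM in LD and 0.478 to 0.621 FPKM in ADV. The lymphocyte markers in the kidney summed to 61.5 FPKM in A94, against 5.07 to 10.7 FPKM in the other 7 mice.

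The other 4 genes were at or near 0 in the kidney. Cyp7a1 had 0 fragments in all 8 kidneys, Abcb11 had 3 fragments, all in L65, Cyp8b1 had 23 and Slc27a5 had 36 fragments over the 8 kidneys. Cyp8b1 reached at most 0.179 FPKM and Slc27a5 at most 0.263 FPKM. Slc27a5 was at 0.0444, 0, 0.0878 and 0.0950 FPKM in L63, L65, L86 and L104, and at 0.263, 0.110, 0.153 and 0.0900 FPKM in A75, A91, A94 and A115. It lay above every LD kidney in 3 of the 4 ADV kidneys, each from at most 11 fragments. In a fit without the filter its log2 fold change was 0.70 (SE 0.29, unadjusted p = 0.0421, limma adjusted p = 1.0), against −0.52 (SE 0.34) for Cyp8b1 and −0.11 (SE 0.12) for Abcb11, neither of them under an unadjusted p of 0.05.

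**Figure D3:**
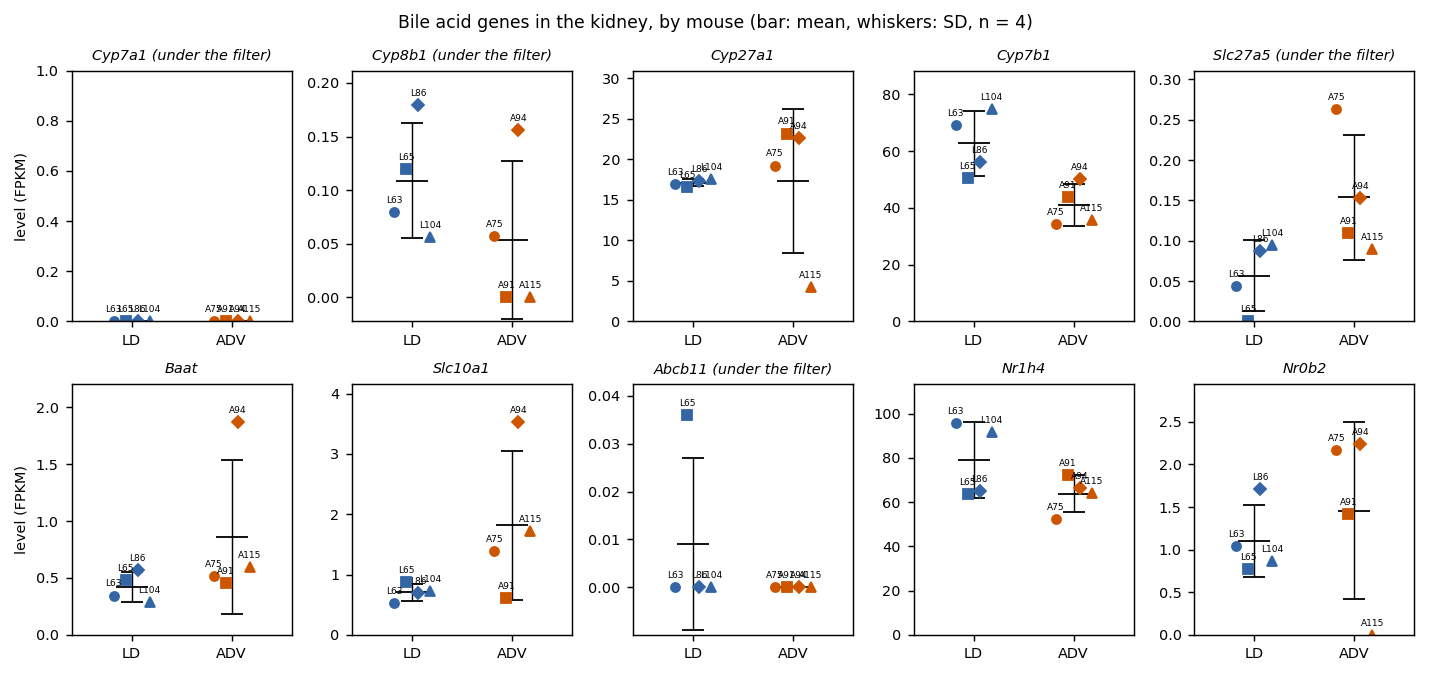
Level of the 10 genes in the kidney of each mouse (vertical axes, FPKM, each with its own range), LD against ADV, with the mean as a bar and the SD as whiskers (n = 4 mice). Cyp7b1 lies between 50.4 and 74.9 FPKM in LD and between 34.3 and 50.1 FPKM in ADV, and A115 lies far below the others for Cyp27a1 and at 0 for Nr0b2.

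Between the organs of the same 8 mice, 9 of the 10 genes were higher in the liver at an adjusted p under 0.05 by limma, beside 75.1% of all genes that differed and 13.2% that were higher in the liver. Over all genes the median log2 difference, liver minus kidney, was −0.75 as deposited and −0.033 after scaling by the median ratio, where all 10 genes were higher in the liver at an adjusted p under 0.05 by limma, beside 31% of all genes. Cyp7a1 averaged 44.5 ± 39.7 FPKM (SD, n = 8) in the liver, which is at least 9038-fold higher than the 0.00492 FPKM that 3 fragments over the 8 kidneys give. Slc27a5 was 3721-fold, Cyp8b1 501-fold, Slc10a1 266-fold and Baat 227-fold higher in the liver by the ratio of mean levels. The ratio was 12.7 for Nr0b2 and 10.8 for Cyp27a1, and for Cyp7b1 it was 2.29, with a log2 difference of 1.15 (SE 0.20, limma adjusted p = 9.7e-05), higher in the liver of all 8 mice. These ratios are of unscaled levels. With median ratio scaling the log2 difference was 1.92 (SE 0.22) for Cyp7b1, against 1.15, and it was 4.29 against 3.52 for Cyp27a1 and 4.70 against 3.95 for Nr0b2.

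Nr1h4 was the exception, at 63.2 ± 7.72 FPKM (SD, n = 8) in the liver and 71.4 ± 14.9 FPKM (SD, n = 8) in the kidney, and it was higher in the liver of 2 of the 8 mice. Its log2 difference was −0.16 (SE 0.12, 95% interval from −0.41 to 0.094, limma adjusted p = 0.237), but 0.62 (limma adjusted p = 0.00319) after scaling by the median ratio, so that its direction depended on the scaling. Within the kidney the order of mean levels was Nr1h4, Cyp7b1, Cyp27a1, Nr0b2, Slc10a1, Baat, Slc27a5, Cyp8b1, Abcb11 and Cyp7a1. The ranges over the 8 kidneys did not overlap between Cyp7b1 and Cyp27a1, between Cyp27a1 and Nr0b2 and between Baat and Slc27a5, and overlapped between the other neighbours.

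Whether the difference between the conditions was unlike in the 2 organs was tested for the 6 genes measured in both. By limma 0 of the 6 had an adjusted p under 0.05, as did 0% of 12319 genes, and 1 had an unadjusted p under 0.05, beside 3.46% of all genes. That gene was Slc10a1, whose log2 fold change was −0.26 in liver and 1.03 in kidney. The difference was 1.29 (SE 0.51, 95% interval from 0.20 to 2.38, limma adjusted p = 1.0), with the kidney values at the low level given above. It was 0.77 (unadjusted p = 0.0787 by limma) without A94 and 1.83 (unadjusted p = 0.000475, limma adjusted p = 0.501) without A91. For Cyp7b1 the log2 fold changes were −0.55 and −0.61, and the interval of the difference ran from −0.91 to 0.80.

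Beyond the 10 genes, 8 lists of bile acid metabolism and its regulators held 70 other genes, of which 63 were tested in the liver and 54 in the kidney. In the liver 0 of the 63 passed an adjusted p of 0.05 by limma, the smallest being 0.210. At an unadjusted p under 0.05 there were 12 of the 63 (19.0%, beside 11.8% of all genes), 4 higher and 8 lower in ADV. After scaling by the median ratio there were 16, 4 higher and 12 lower, beside 13.5% of all genes (6.19% higher and 7.29% lower). Without A94 there were 17, 9 higher and 8 lower, beside 14.5% of all genes. The groups did not overlap in 11 of the 63 (17.5%, beside 8.84% of all genes). The counts of each list that follow stand beside 8.65% of all genes higher and 3.13% lower at that p, and beside a median of 0.096.

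The list of the classic pathway and side-chain enzymes held the 2 genes with the smallest p on the higher side. Acox2, the peroxisomal oxidase that starts the shortening of the side chain, was at 44.2, 45.1, 40.4 and 56.3 FPKM in the LD livers and at 69.4, 81.0, 69.9 and 87.2 FPKM in the ADV livers. All 4 ADV livers lay above the LD livers, and the log2 fold change was 0.73 (SE 0.13, limma adjusted p = 0.210). Hsd3b7, which oxidises the 3-beta-hydroxyl group of the sterol ring, was at 76.3, 79.6, 58.3 and 74.7 FPKM in LD and at 100, 119, 94.3 and 127 FPKM in ADV. It too lay apart, with a log2 fold change of 0.61 (SE 0.14, limma adjusted p = 0.288). In the same list, Slc27a2, a fatty acid transporter and acyl-CoA synthetase, and Abcd3, a peroxisomal transporter, lay below the LD range in all 4 ADV livers, with log2 fold changes of −0.59 and −0.51 (limma adjusted p = 0.306 and 0.312). Over the 12 genes of this list, 2 were higher and 3 lower at an unadjusted p under 0.05 and the median log2 fold change was −0.17, against 0.096 over all genes.

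Of the 6 genes tested for the alternative pathway and oxysterols, 1 was lower at an unadjusted p under 0.05 and the median was −0.15. That gene was Cyp46a1, a cholesterol 24-hydroxylase best known from neurons, at 1.80 to 1.97 FPKM in the LD livers and 0.554 to 1.12 FPKM in the ADV livers (log2 fold change −1.24, SE 0.20, limma adjusted p = 0.210). Of the genes of this list that are not among the 10, the next lowest p was that of Stard5, a sterol carrier, with a log2 fold change of −0.10. Of 10 genes of muricholic acid formation, conjugation and modification, 1 was higher and the median was 0.28. Acnat2, an acyl-CoA N-acyltransferase related to Baat, was at 10.3, 10.7, 22.8 and 34.4 FPKM in the LD livers and at 72.1, 35.01, 57.2 and 122 FPKM in the ADV livers. The groups lay apart by a narrow margin between L104 and A91, and the log2 fold change was 1.91 (SE 0.46, limma adjusted p = 0.296). Acnat1 and Acnat2 are close paralogs, and how their reads were split is uncertain. Sult2a8, a bile acid sulfotransferase, had a log2 fold change of −0.53 (SE 0.24, limma adjusted p = 0.432), and −0.34 without A94.

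For the sinusoidal transporters, 0 of 7 genes had an unadjusted p under 0.05 by limma and the median was −0.072. Slco1a1, an organic anion transporter, had a log2 fold change of −0.77 (SE 0.37) and Abcc3, a basolateral efflux pump, −0.056. Among 9 canalicular and apical transporters 1 was higher and the median was −0.14. This was Atp8b1, a phospholipid flippase of the canalicular membrane, at 4.85 to 5.89 FPKM in LD and 6.01 to 8.89 FPKM in ADV (log2 fold change 0.51, SE 0.14, limma adjusted p = 0.296). Abcb4, the canalicular phosphatidylcholine floppase, had a log2 fold change of −0.23, and −0.11 without A94.

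Of the 12 genes tested for sensors and the repressor circuit, 3 were lower (beside 3.13% of all genes), 0 were higher (beside 8.65%) and the median was −0.11, against 0.096 over all genes. Nr1i3 (CAR), a receptor of xenobiotics that also limits bile acid toxicity, was at 65.3, 71.3, 69.3 and 66.3 FPKM in the LD livers and at 45.7, 48.1, 38.0 and 53.4 FPKM in the ADV livers. All ADV livers lay below the LD livers, with a log2 fold change of −0.56 (SE 0.11, limma adjusted p = 0.234). Hnf4a, a hepatocyte transcription factor that activates Cyp7a1 and Cyp8b1, was at 178, 186, 232 and 231 FPKM in LD and at 149, 146, 127 and 199 FPKM in ADV. Its groups overlapped through A115, with a log2 fold change of −0.42 (SE 0.16, limma adjusted p = 0.378). Nr1i2 (PXR), a xenobiotic receptor that bile acids also bind, was at 27.5 to 31.4 FPKM in LD and 17.6 to 27.3 FPKM in ADV. Its groups lay apart, with a log2 fold change of −0.33 (SE 0.14, limma adjusted p = 0.404) and of −0.20 (unadjusted p = 0.0535 by limma) without A94. Of 8 lipid and oxysterol regulators 1 was lower and the median was 0.16. Ppara, the receptor that induces fatty acid oxidation, ranged from 41.9 to 56.2 FPKM in LD and from 20.6 to 36.4 FPKM in ADV (log2 fold change −0.75, SE 0.18, limma adjusted p = 0.296), and Srebf2 had a log2 fold change of 0.41.

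Of the 10 clock-linked regulators tested, 1 was lower at an unadjusted p under 0.05 and the median was −0.45, with 9 of the 10 below 0, beside 3.13% lower at that p, 34.3% below 0 and a median of 0.096 over all genes. Klf15 had a log2 fold change of −0.29. The widest spread in this list was that of Dbp, an activator of Cyp7a1, at 28.6, 21.98, 13.4 and 8.25 FPKM in the LD livers and at 2.40, 37.8, 33.7 and 1.33 FPKM in A75, A91, A94 and A115. The ADV livers fell into a pair below and a pair above the whole LD range.

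**Figure D4:**
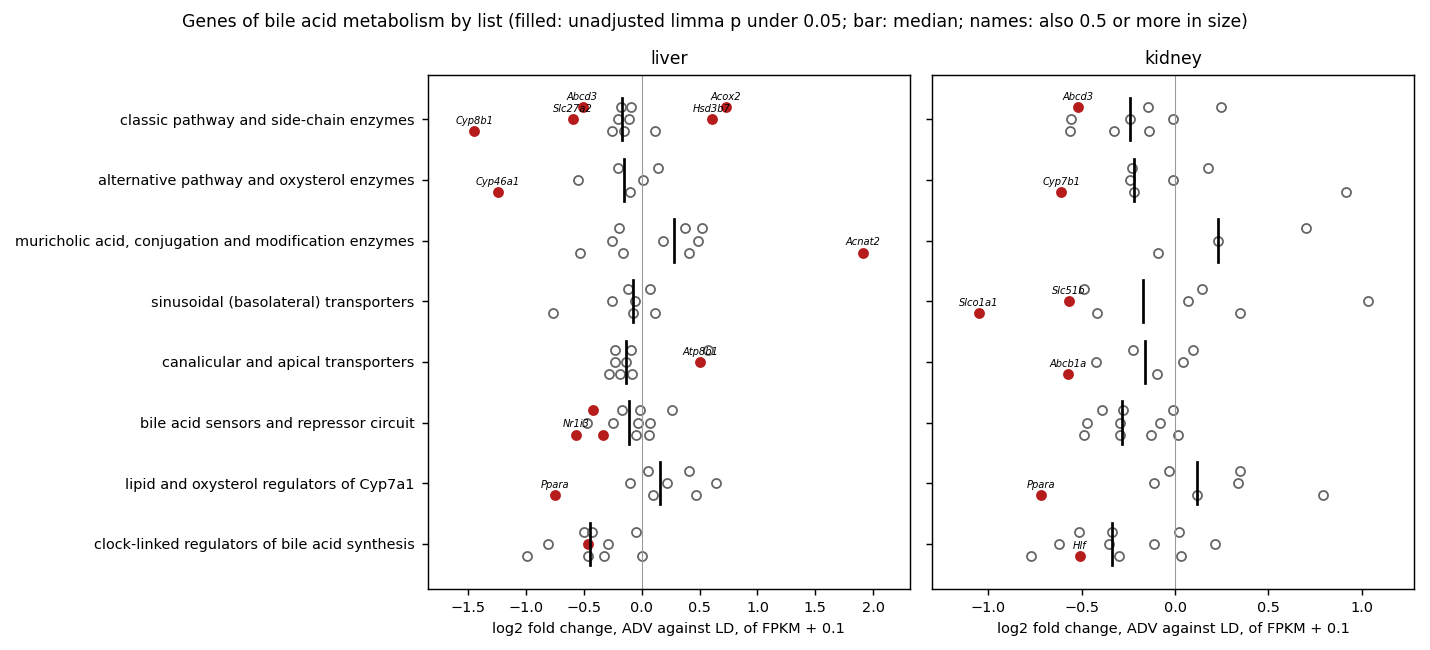
Log2 fold change, ADV against LD (horizontal axes, log2 of FPKM + 0.1), of every tested gene in the 8 lists (vertical axis), in liver and kidney, with the median of each list as a bar, genes with an unadjusted limma p under 0.05 filled, and filled genes named where the log2 fold change is at least 0.5 in size. In the liver Acox2, Hsd3b7, Acnat2 and Atp8b1 lie on the higher side and the other 8 filled genes that are not among the 10 lie on the lower side, with a median of −0.45 for the clock-linked list.

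In the kidney 0 of the 54 other genes passed an adjusted p of 0.05 by limma, and 6 (11.1%, beside 3.1% of all genes) had an unadjusted p under 0.05, all lower in ADV. Without A94 there were 2, Abcd3 and Slco1a1, beside 1.71% of all genes. Without A115 there were 21, 14 higher and 7 lower, beside 37.1% of all genes, and 10 of the 54 passed an adjusted p of 0.05 by limma, 7 higher and 3 lower, beside 18.8% of all genes. With all mice Abcd3 lay apart, at 124 to 139 FPKM in LD and 84.5 to 111 FPKM in ADV (log2 fold change −0.52, SE 0.14, limma adjusted p = 1.0), and so did Ppara, with a log2 fold change of −0.72. The others of these 6 were Slco1a1 (−1.05), Slc51b, the beta subunit of the organic solute transporter (−0.57), Abcb1a (−0.57) and Hlf (−0.51). The 3 lower genes that passed without A115 were Abcd3 (−0.49, limma adjusted p = 0.0232), Ppara (−0.43, limma adjusted p = 0.0425) and Slc51b (−0.70, limma adjusted p = 0.0168). Of the rest of the named genes, the log2 fold changes were −0.56 for Akr1d1, 0.92 for Ch25h, 0.18 for Stard4, 0.23 for Acnat1, −0.092 for Acnat2, −0.43 for Abcc2, −0.47 for Vdr, and −0.49 for Prox1, with an adjusted p of 1.0 by limma for each. Without A115 these became −0.48 for Akr1d1, 1.27 for Ch25h (unadjusted p = 0.0445 by limma), 0.17 for Stard4 and 0.032 for Acnat1. They became −0.099 for Acnat2, −0.28 for Abcc2, −0.10 for Vdr and −0.099 for Prox1.

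Across the 8 livers, 11 pairs of genes that the circuit or the clock links were correlated on the log2 scale, and the smallest adjusted p was 0.803 by the exact permutation test over every assignment of the livers. Neither condition has the 6 mice needed for a value of its own. The repressor Nr0b2 and Cyp7a1 had a Pearson r of −0.43 (exact permutation p = 0.292) and a Spearman rho of −0.24 (exact permutation p = 0.582), with an r of −0.51 without L65 and L86, the livers farthest from the median of Nr0b2. With Cyp8b1, which it also represses, Nr0b2 had a positive r of 0.26 (exact permutation p = 0.550) and a rho of 0.19 (exact permutation p = 0.665), with an r of 0.098 without the same livers. Cyp7a1 and Cyp8b1 had an r of 0.55 (exact permutation p = 0.162) and a rho of 0.55 (exact permutation p = 0.171), and an r of 0.43 without L63 and A115. Nr1h4 and Nr0b2 had an r of −0.49 (exact permutation p = 0.221), a rho of −0.45 (exact permutation p = 0.267) and an r of −0.23 without L63 and A115. No relation was detectable with 8 mice.

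The clock genes were set beside Cyp7a1 in the same way. Nr1d1 (REV-ERB alpha), a repressor of the clock, and Cyp7a1 had an r of −0.15 (exact permutation p = 0.724), a rho of 0.12 (exact permutation p = 0.793), and an r of 0.90 without A75 and A115, so that the value rested on these 2 livers. The level of Nr1d1 was 2.20 FPKM in A75 and 1.40 FPKM in A115, below the 5.25 to 9.20 FPKM of the other 6 livers, and these livers had the lowest and the highest level of Cyp7a1. For Dbp and Cyp7a1 the r was −0.13 (exact permutation p = 0.748), the rho 0.048 (exact permutation p = 0.935), and the r without the same 2 livers 0.47. A75 and A115 were also the livers lowest in Dbp.

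**Figure D5:**
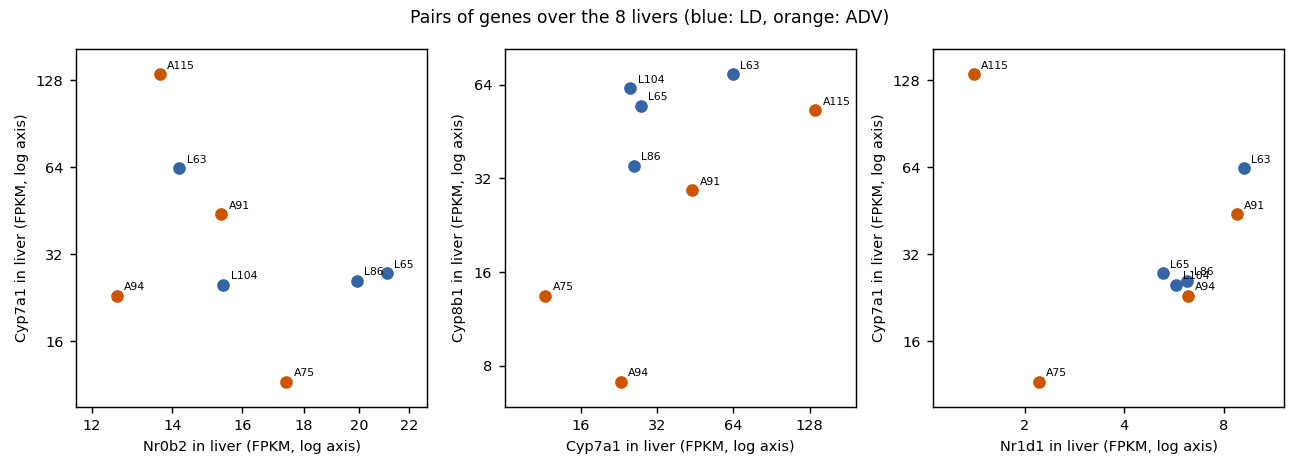
Levels of 3 pairs of genes in the 8 livers (both axes FPKM on a log scale), LD in blue and ADV in orange, each point 1 mouse. In the right panel A75 and A115 lie at 2.20 and 1.40 FPKM of Nr1d1 with 11.6 and 135 FPKM of Cyp7a1, apart from the other 6 livers.

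The genes whose level followed a gene most closely were named by their Pearson r over the 8 libraries of an organ, as a description, since these libraries share depth and condition. In the liver these were Kcnn1 (r = 0.957) and Zfp947 (0.926) for Cyp7a1, and Aspdh (0.980) and Acot12 (0.962), an acetyl-CoA hydrolase, for Cyp8b1. For Cyp7b1 they were Gm16551 (0.973) and Slc22a7 (0.947), an organic anion transporter, and for Nr0b2 BC007164 (0.865) is given. An r above 0.9 was reached by 4 genes with Cyp7a1, 36 with Cyp8b1, 12 with Cyp7b1 and 0 with Nr0b2, of 12834 compared. In the kidney Pde4d (0.963) and Scyl3 (0.960) were closest to Cyp7b1, and Fadd (0.999) and Zkscan17 (0.997) to Nr0b2. With Nr0b2 in the kidney 4377 of 14451 genes had an r above 0.9, and in A115, where Nr0b2 was at 0, 55.4% of all genes were at their lowest.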

How the data were processed

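Liver and kidney of 4 LD-conditioned and 4 ADV-conditioned mice were analysed, 16 libraries in all, each mouse being a separate animal by its number in the labels. The authors trimmed the reads with Trimmomatic, mapped them with STAR 2.5.4b to GRCm38/mm10, removed reads of low mapping quality with SAMtools and counted reads over exons of UCSC known canonical genes with Homer. Whether the counting used strand is not given in the sources used here. The deposited values are FPKM, although their column names say RPKM, and were divided by each library's own total with no further scaling. Multiplied back by exon length and total, 100% of the values above 0 fell on steps of 0.5 fragment (tolerance 0.02), which fits a count of 0.5 for each mate.

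Genes whose mean FPKM before the division by exon length lay above 0.5 were tested on log2(FPKM + 0.1) with limma 3.58.1 in R 4.3.3 (trend in the variance prior), per organ, with Benjamini-Hochberg adjustment over all genes and a threshold of 0.05. The organs were compared in 1 fit of the 16 libraries. This procedure was run on simulated data with 200 shifted genes, and the outcome is not reported here. The study's own differential expression test was not run here. The genes, lists and tests were chosen with earlier results of these data known. Named are the 10 genes, in each list and organ the 2 other genes with the smallest unadjusted p, for Cyp7a1, Cyp8b1, Cyp7b1 and Nr0b2 the 2 genes with the highest r, and markers or regulators that stand beside a result. Genes of the lists with an unadjusted p under 0.05 that this rule does not take (Slc27a2, Abcd3 in the liver, Nr1i2) and Dbp and Nr1d1 were named after their values were seen. Of the listed genes, Stard1 was not analysed here. A few genes that the rule takes are not reported here.

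Liver and kidney of a mouse form a pair by the mouse's number. Their deviations from the group means correlated across 12319 genes, with r = 0.147 in L63, 0.117 in L65, 0.185 in L86 and 0.0982 in L104, and with 0.553 in A94, 0.334 in A91, 0.0423 in A115 and −0.0242 in A75. Alternatives were scaling by the median ratio, quantile normalization, other pseudocounts (0.5 and 1), no filter or a mean FPKM above 1, limma-voom, no trend, 1 fit of both organs, a replicate block for the mouse, and the removal of each mouse. Scaling by fragments off the mitochondrial genes, and median ratio scaling without A115 or without A94, were chosen after seeing the data. For 1 kb of exon, a single fragment gave 0.0380 to 0.0440 FPKM in the livers and 0.0508 to 0.0584 FPKM in the kidneys.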

Additional observations from a re-analysis of the deposited data

Results flagged for a closer look

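In 3 of 96 groups of 4 mice, the mouse at one end lay far from the other 3 (by Dixon's ratio), and chance alone gives about 1 in 20 such groups. In the LD livers Cyp7a1 was at 63.6 FPKM in L63, against 25.1 to 27.6 FPKM in the other 3 mice. In the ADV kidneys Baat was at 1.87 FPKM in A94, against 0.451 to 0.592 FPKM. In the LD kidneys Ch25h, a cholesterol 25-hydroxylase, was at 3.27 FPKM in L86, against 1.01 to 1.35 FPKM.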

How the results depend on the processing

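Most values kept their direction and their side of the threshold. The exceptions outside the fits that left out a mouse were these. For Nr0b2 in the kidney the log2 fold change was 0.060 with a pseudocount of 0.5 and 0.11 with 1, and its difference between the organs was 0.30 and 0.34 with these pseudocounts and 0.018 when scaled by the median ratio, where Cyp27a1 and Cyp7b1 gave 0.034 and 0.023. Liver against kidney, Nr1h4 was at 0.62 when scaled by the median ratio and at −0.32 (limma adjusted p = 0.0359) with scaling by fragments off the mitochondrial genes. The number of genes under an adjusted p of 0.05 was 6 without a filter in the liver, 1 with both organs in 1 fit in the kidney, and, with median ratio scaling or quantile normalization, 1 each for the difference between the organs. With both organs in 1 fit the liver also had 1 gene, but it was higher in ADV, whereas the 1 gene of the main liver fit was lower, so the call was not the same gene. The r of Nr1h4 and Nr0b2 was 0.21 under median ratio scaling, and that of Baat and Slc27a5 was 0.49 there and 0.19 with quantile normalization, against −0.096. Unadjusted, the liver had 1110 genes higher and 402 lower, 795 and 936 under median ratio scaling, and 638 and 988 under quantile normalization.

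With 1 mouse left out, with or without scaling by the median ratio, the liver values ran from −0.62 to 0.66 for Cyp7a1, from −0.42 to 0.042 for Cyp27a1, from −0.20 to 0.064 for Nr1h4, from −0.83 to −0.39 for Cyp7b1, from −0.41 to −0.12 for Slc10a1, from −0.29 to −0.044 for Slc27a5, from 0.29 to 0.92 for Abcb11, from 0.018 to 0.26 for Baat, from −2.02 to −0.96 for Cyp8b1 and from −0.35 to −0.16 for Nr0b2, and the kidney values from −0.47 to 0.33 for Cyp27a1, from −0.79 to 0.80 for Nr0b2, from −0.75 to −0.52 for Cyp7b1, from 0.65 to 1.43 for Slc10a1, from 0.28 to 0.89 for Baat and from −0.50 to −0.19 for Nr1h4. The difference between the organs ran from −0.50 to 0.65 for Cyp27a1, from −0.30 to 0.18 for Cyp7b1, from −0.54 to 1.02 for Nr0b2, from 0.77 to 1.83 for Slc10a1, from 0.021 to 0.73 for Baat and from −0.34 to −0.19 for Nr1h4, and liver against kidney from −0.19 to 0.66 for Nr1h4, from 1.03 to 2.05 for Cyp7b1, from 3.17 to 4.52 for Cyp27a1 and from 3.42 to 4.95 for Nr0b2. The genes under an adjusted p of 0.05 ran from 0 to 9 in the liver, from 0 to 2724 in the kidney (2724 without A115) and from 0 to 546 for the difference between the organs. With the mouse as a replicate block, Nr1h4 had a log2 difference of −0.16 between liver and kidney (limma adjusted p = 0.149) and 11417 genes passed, against 11235, and the pairing changed no call of the 10 genes. Depth limits the kidney values of Slc10a1, Baat and Nr0b2. Abcb11, Cyp8b1 and Slc27a5 were compared there only without the filter on low values, and Cyp7a1 had no fragments to compare.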
